A study of Xenopus laevis with 46 samples.

Results

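Extracellular matrix and integrin genes were followed through the late blastula and early gastrula of Xenopus laevis, the African clawed frog. Members were the rows of the deposited gene tables whose human match is fibronectin (FN1), a laminin chain, a numbered collagen chain, an integrin chain, a fibrillin, a fibulin, a nidogen, perlecan (HSPG2), SPARC, versican (VCAN), a hyaluronan synthase, a matrix metalloproteinase or a TIMP. The rule used names alone, and it found 248 rows among the 43823 rows present in either table. The table of stage 10.5 held 247 of them, with 112 human names, and the table of stage 9 held 232, with 109 names. Because the X. laevis genome carries a long (L) and a short (S) copy of many genes, 1 human name often has several rows, and copies that resemble each other can share reads.

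The extracellular matrix is the secreted network that cells move on and through. Integrins are paired alpha and beta chains that span the cell membrane and bind it. In the amphibian gastrula, fibronectin fibrils line the blastocoel roof, and the alpha5 beta1 integrin is the receptor on which mesoderm spreads and by which the fibrils are assembled. Laminins, nidogens, perlecan and collagen IV build basement membranes. Hyaluronan is a long sugar polymer spun out at the cell surface by the hyaluronan synthases (HAS), and versican is a proteoglycan that binds it. Metalloproteinases cut matrix proteins, and TIMPs inhibit them.

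The study sequenced polyadenylated RNA from untreated whole embryos, the controls, and from embryos whose dorsal-ventral patterning was shifted early. The embryos came from the Nasco strain. The bCatMO embryos received a morpholino against β-catenin, the effector of the maternal Wnt signal, at the 2 to 4 cell stage. The LiCl embryos were bathed in lithium chloride, which mimics that signal, at the 32-cell stage. Sia embryos were injected marginally with 100 pg of mRNA for Siamois, a transcription factor induced by the signal. Wnt8 embryos received xWnt8 mRNA and Cer embryos received mRNA for Cerberus (xCer L), a secreted inhibitor of Nodal, BMP and Wnt ligands. The Sia, Wnt8 and Cer injections were also made at the 2 to 4 cell stage. Dorsal and ventral half-embryos were cut at stage 8 and grown to stage 10.5. Stage 10.5 had 6 controls, 3 libraries for each of bCatMO, Wnt8 and Cer, 2 for each of Sia and LiCl, and 5 each of dorsal and ventral half-embryos. Stage 9 had 5 controls, with 3 libraries for each of Wnt8 and Cer and 2 for each of the other treatments. The labels tie every treated library to an untreated library of its own batch.

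Values are RPKM, read counts scaled by the authors for gene length and library depth, as deposited. The reads recovered in genes came to 24.53 to 45.02 M (10 to the power of 6) a library at stage 10.5 and 27.93 to 58.47 M at stage 9. Organizer and ventral markers moved with most labels: the summed RPKM of the dorsal list was 502.5 to 654.1 in controls, 109.7 to 169.3 in bCatMO, 1411.4 to 1476.4 in LiCl and 1236.1 to 1611.5 in Sia at stage 10.5. The supplied mRNAs were seen in the Sia libraries (sia row 637.5 to 659.9 RPKM, against 5.95 to 22.3 in controls) and in the Cer libraries (cer1.S 4247.0 to 5762.3, against 59.2 to 114.8). The supplied xCer L mRNA was thus counted on cer1.S, while cer1.L was at 0.0646 to 0.512 RPKM in Cer against 8.63 to 28.9 in controls. Supplied mRNA was not seen in the libraries labelled Wnt8, where wnt8a.L was at 26.4 to 55.9 RPKM against 43.6 to 102.2 in controls, although the dorsal list summed to 827.2 to 1230.9 there. The row for ctnnb1 (β-catenin) is no check of a morpholino, which blocks translation. Of the ctnnb1 rows, Xelaev18031149m was at 190.3, 252.9 and 208.2 RPKM in bCatMO and at 285.8, 368.8 and 298.4 in the controls of the same batches, while Xelaev18033202m was at 306.1, 334.9 and 313.8 against 318.8, 345.8 and 321.3.

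In untreated embryos of stage 10.5 most of the summed matrix RPKM came from hyaluronan synthase rows. The mean RPKM of all members summed to 1892.7, of which the rows of the HAS genes and versican made up 1482.3. Fibronectin came next with 127.3, then the integrin beta chains with 79.8, the proteases and their inhibitors with 69.7, the integrin alpha chains with 47.1 and the non-laminin basement membrane genes with 46.2. Laminins summed to 17.3 RPKM, fibrillar collagens to 3.84 and all other collagens to 12.

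The highest member was a HAS1 row, Xelaev18019732m, a hyaluronan synthase gene model of 2455 bases, at 1050.2 ± 325.4 RPKM (SD, n = 6). Its 6 control libraries ran from 509.7 to 1429.8. A separate HAS1 row, Xelaev18019733m (2229 bases), stood at 315.0 ± 80.3 RPKM, from 162.8 to 376.1. The ranges of these rows did not overlap each other. HAS2, the other abundant synthase, had its L copy at 73.1 ± 13.6 RPKM (58.3 to 90.7) and its S copy at 41.6 ± 9.54 (26.9 to 53.3). Versican was low, with vcan.L at 1.12 ± 0.536 RPKM (0.462 to 1.9).

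Fibronectin was the most abundant matrix protein gene, with fn1.S at 81 ± 18.3 RPKM (55 to 100.2) and fn1.L at 46.3 ± 9.43 (35.7 to 57.8). In every control library fn1.S was the higher copy, by a ratio of 1.44 to 2.31. The fibronectin receptor was present in both chains. The alpha5 chain was at 19.9 ± 6.54 RPKM in itga5.L and at 3.1 ± 0.478 in itga5.S, and the beta1 chain was at 28.6 ± 6.26 in ITGB1 row Xelaev18030727m and at 18.1 ± 4.19 in ITGB1 row Xelaev18032868m. The beta5 chain, a partner of alphaV, reached 20.9 ± 8.16 RPKM in row Xelaev18044357m and 10.2 ± 2.78 in row Xelaev18046921m, and itgav.L itself was at 15.1 ± 4.71. The range of itga5.S (2.46 to 3.59 RPKM) lay below that of every other integrin row named here. Row Xelaev18046921m (7.23 to 13.7) lay below both ITGB1 rows and itga5.L, which were at 13.8 RPKM or more in every control. The ranges of the other integrin rows overlap, so their order among themselves is not fixed by 6 libraries.

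Among the basement membrane genes, nid2.L (nidogen 2, a linker between laminin and collagen IV) stood apart at 39.6 ± 10.7 RPKM. Its S copy was 28.5 to 202.0 times lower. The gamma1 laminin chain was at 6.05 RPKM in lamc1.L and at 4.53 in lamc1.S, and the beta1 chain was carried mainly by lamb1.S, at 2.23 RPKM against 0.219 for lamb1.L. Of the proteases, mmp15.S and mmp15.L, membrane-bound metalloproteinases, were at 25 ± 2.39 and 15 ± 3.75 RPKM. The TIMP1 row Xelaev18038146m was at 17.7 ± 12.7 RPKM and ranged from 5.54 to 40. The low rows named by the same rule were FBN2 row Xelaev18007943m, for a fibrillin of microfibrils, at 1.15 ± 0.974 RPKM, mmp14.L at 1.39 ± 0.617 and mmp14.S at 0.436 ± 0.183, TIMP3 rows Xelaev18002484m and Xelaev18019817m at 0.373 ± 0.155 and 0.267 ± 0.0979, and HSPG2 row Xetrov90019615m.L at 0.344 ± 0.136. Outside mmp14.L, none of these was called in any comparison in which it was tested. Most fibrillar and other collagen rows were low, as were the rows of LAMA1, FBN1 and SPARC. Not all collagens were: col24a1.L was at 1.28 ± 0.253 RPKM, with 200 to 449 reads in the controls. COL28A1 row LOC100490088.S was at 3.89 ± 2.93 RPKM (0.07 to 6.31). In no library of stage 10.5 did a row exceed 0.143 RPKM for LAMA1, 0.515 for COL2A1, 0.135 for FBN1 or 0.55 for SPARC. Of the 27 fibrillar collagen rows, 21 had a control mean below 0.1 RPKM, and so did 44 of the 59 rows of other collagens.

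**Figure D1:**
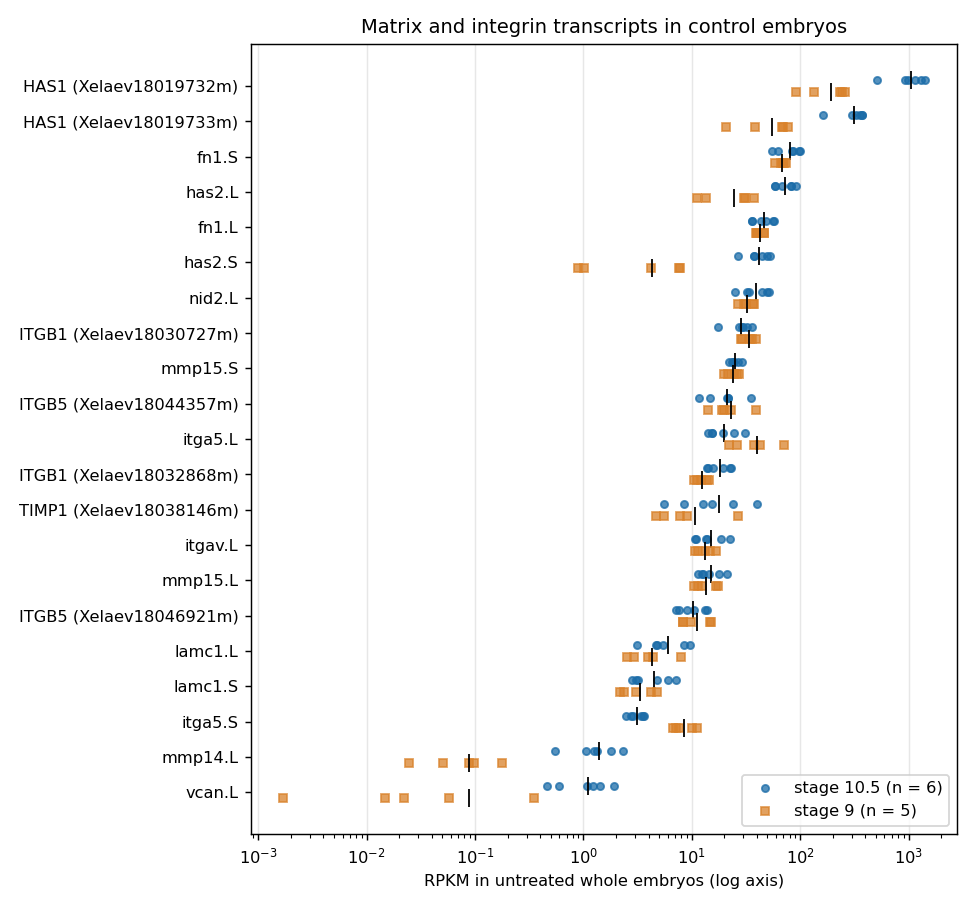
RPKM (log axis) of the most abundant matrix and integrin rows in every untreated whole-embryo library of stage 10.5 (circles, n = 6) and stage 9 (squares, n = 5), with ticks at the means. The HAS1 rows lie highest at stage 10.5, at means of 1050.2 and 315.0 RPKM, and the ranges of 44 of the 49 members tested at both stages overlap.

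At stage 9 the summed mean was 678.0 RPKM, and hyaluronan synthases and versican made up 278.5 of it. The tables of the 2 stages were made separately, so the levels are set side by side without a test. HAS1 row Xelaev18019732m was at 193 ± 75 RPKM at stage 9 (91.8 to 260.5, n = 5), below every control library of stage 10.5, and row Xelaev18019733m was at 54.7 ± 24 (20.5 to 76.8), also below all of them. The has2.L copy was at 24.8 ± 11.8 RPKM (11.1 to 37.9) and has2.S at 4.31 ± 3.38 (0.889 to 7.75), so that the 4 abundant synthase rows all had non-overlapping ranges. The L to S ratio of has2 ran from 4 to 13.2 at stage 9 and from 1.56 to 2.17 at stage 10.5. The opposite order was seen in itga5.S, at 8.57 ± 2.04 RPKM (6.71 to 11.3) at stage 9 against 2.46 to 3.59 at stage 10.5. Of the 49 members tested at both stages, 4 were higher at stage 10.5 without overlap, 1 was higher at stage 9 and 44 overlapped, whereas among all 17746 rows 6.28% were higher at stage 10.5 and 16.8% at stage 9. Rows that were low at stage 9 are outside that count. Of the 8 members tested at stage 10.5 alone, 3 were higher there without overlap, against 42.4% of 1087 such rows, all of them admitted by that stage. The vcan.L row was at 0.0017 to 0.348 RPKM at stage 9 against 0.462 to 1.9 at stage 10.5, mmp14.L at 0.0245 to 0.177 against 0.553 to 2.34, and FBLN1 row LOC100488229.L, for a fibulin, had no read in any of the 5 controls of stage 9 and was at 0.0865 to 1.89. Of the 170 members tested at neither stage, 10 were higher at stage 10.5 without overlap (5.88%, against 2.75% of 17227 rows) and none at stage 9. Among these low rows itga6.L, an integrin chain that binds laminin, was at 0.0219 to 0.0664 RPKM at stage 9 and at 0.368 to 0.697 at stage 10.5, mmp14.S at 0.0392 to 0.175 and 0.209 to 0.639, and fbn3.S (matched to FBN2) at 0.00214 to 0.0124 and 0.0612 to 0.333; these 3 were chosen after their values were seen. Fibronectin and beta1 integrin were among the overlapping rows: fn1.S was at 68 ± 6.12 RPKM and ITGB1 row Xelaev18030727m at 33.5 ± 4.46 at stage 9.

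A low-value filter decided which members could be tested. A row entered a test when at least 2 of the fitted libraries had 1 RPKM or more, which 57 members did among the whole embryos of stage 10.5, 53 at stage 9 and 52 among the half-embryos. The remaining 190 rows at stage 10.5 never passed it in whole embryos, and 6 of the 247 rows were at 0 in every library. Differences are given as changes in log2(RPKM + 0.5), a scale that compresses the change of low rows, and a row was called at an adjusted p below 0.05 in limma, adjusted over all rows tested. The shared control libraries link the treatments, so each treatment is described by its own values. In whole embryos and half-embryos alike, fewer cells making a transcript and less of it per cell cannot be told apart.

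Of the treatments, Cer had the most called members. Of the 57 tested at stage 10.5, 9 were called, which is 15.8%, against 4.54% of all 18834 rows. Of the 9, 7 were lower and 2 higher, and of all rows 2.90% were called lower and 1.65% higher. Of the 2 higher members, lamb1.L passed the filter through Cer libraries alone and is left out of what the share can show; 8 called members passed it otherwise. The median member change was -0.07, against 0.003 over all rows. Of the 6 tested rows of the hyaluronan family, 4 fell, and the family's median change was -0.98.

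Both copies of HAS2 fell. The has2.L row was at 25.9, 30.1 and 30.2 RPKM in the 3 Cer libraries and at 58.5, 67.8 and 81.7 in the untreated libraries of the same batches. Every Cer library was below every one of the 6 control libraries. The change was -1.25 ± 0.11 (SE) on the log2 scale, with an adjusted p of 1.4e-05 by limma. The has2.S row was at 12.3, 15.1 and 16.8 RPKM against 37.5, 37.7 and 44.8, again without overlap, a change of -1.42 ± 0.14 with an adjusted p of 6.4e-05. For vcan.L the values were 0.489, 0.271 and 0.194 RPKM against 1.9, 1.23 and 1.43, all lower than these controls, a change of -1.31 ± 0.15 with an adjusted p of 0.00019. On this low row the change was -2.0 with a pseudocount of 0.1 and -2.28 in limma-voom on the recovered reads. Both HAS2 copies and vcan.L stayed called with any 1 library left out.

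The HAS1 rows differed in their calls, and the difference between the rows was not tested. Row Xelaev18019733m was at 162.4, 259.3 and 227.0 RPKM in Cer against 297.9, 376.1 and 373.3 in its controls, all 3 Cer libraries below all 3 controls, and it fell by 0.71 ± 0.13 (adjusted p 0.0051, limma). Row Xelaev18019732m was at 892.4, 1127.1 and 1426.3 RPKM against 990.7, 1140.3 and 1429.8. The groups overlap, and the change was -0.06 ± 0.12 (adjusted p 0.9). The ratio of the former row to the latter was 0.159 to 0.23 in Cer and 0.261 to 0.352 in the 6 control libraries. A low ratio was not particular to Cer: it was 0.22 to 0.253 in Sia and 0.191 to 0.286 in Wnt8. In bCatMO the ratio was 0.34 to 0.395.

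Decreases were also called in 1 row of each chain of the fibronectin receptor and in a fibulin. The other rows of these chains, itga5.S and ITGB1 row Xelaev18030727m, were tested and not called. The itga5.L row was at 10.9, 12.6 and 13.5 RPKM in Cer against 14.1, 15.3 and 19.4, without overlap, a change of -0.37 ± 0.06 (adjusted p 0.004). ITGB1 row Xelaev18032868m was at 20.1, 16.9 and 14 RPKM against 23.1, 22.7 and 19.4. The group ranges overlap, the row was lower in each of the 3 batches, and the change was -0.36 ± 0.08 (adjusted p 0.018). That call was lost without Cer replicate 2 (adjusted p 0.078), Cer replicate 3 (0.15), control replicate 5 (0.11) or control replicate 6 (0.092). The short FBLN1 row LOC100488229.L (403 bases), matched to fibulin 1, an elastic-fibre and basement-membrane protein, was at 0.675, 0.212 and 0.278 RPKM against 1.89, 1.48 and 1.01, a change of -1.15 ± 0.14 (adjusted p 0.00027) that rests on 3 to 11 reads in the Cer libraries. It was -1.75 with a pseudocount of 0.1 and -1.86 in limma-voom, both called. Fibronectin itself did not pass the test: fn1.L changed by -0.15 ± 0.07 and fn1.S by -0.18 ± 0.06.

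A membrane-type protease rose, and a laminin chain was higher. The mmp14.L row, for the metalloproteinase that sits on the cell surface and activates MMP2, was at 4.14, 4.87 and 5.08 RPKM in Cer against 1.34, 2.34 and 1.79, with no overlap, a change of 1.18 ± 0.24 (adjusted p 0.011). It was no longer called without Cer replicate 1 (adjusted p 0.069) or control replicate 6 (0.094). The lamb1.L row was at 0.412, 1.95 and 1.34 RPKM against 0.164, 0.75 and 0.215. The group ranges overlap, every Cer library was above its own control, and the change was 0.93 ± 0.16. This row passed the filter through Cer replicates 2 and 3 alone, since no other whole-embryo library exceeded 0.939 RPKM, so its call with the filter carries no weight; in the fit without a filter its adjusted p was 0.009.

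Markers of the embryonic regions moved in the Cer libraries as well. The summed RPKM of the mesoderm list was 377.1 to 470.6 in Cer and 758.6 to 1173.9 in controls, with 10 of its 14 rows called lower and none of the 14 at 0 throughout Cer. The endoderm list summed to 47.7 to 119.7 against 221.5 to 426.8, with 10 of 10 tested rows called lower, and the ventral list to 96.5 to 150.4 against 137.3 to 430.2, with 8 of 8 lower. On the dorsal list 10 of 15 tested rows were called lower and 1 higher, cer1.S, the row that held the supplied mRNA. The epidermis list summed to 807.8 to 897.4 against 695.3 to 1045.8, with 8 of 15 tested rows lower. The part of these shifts in the matrix changes was not tested.

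**Figure D2:**
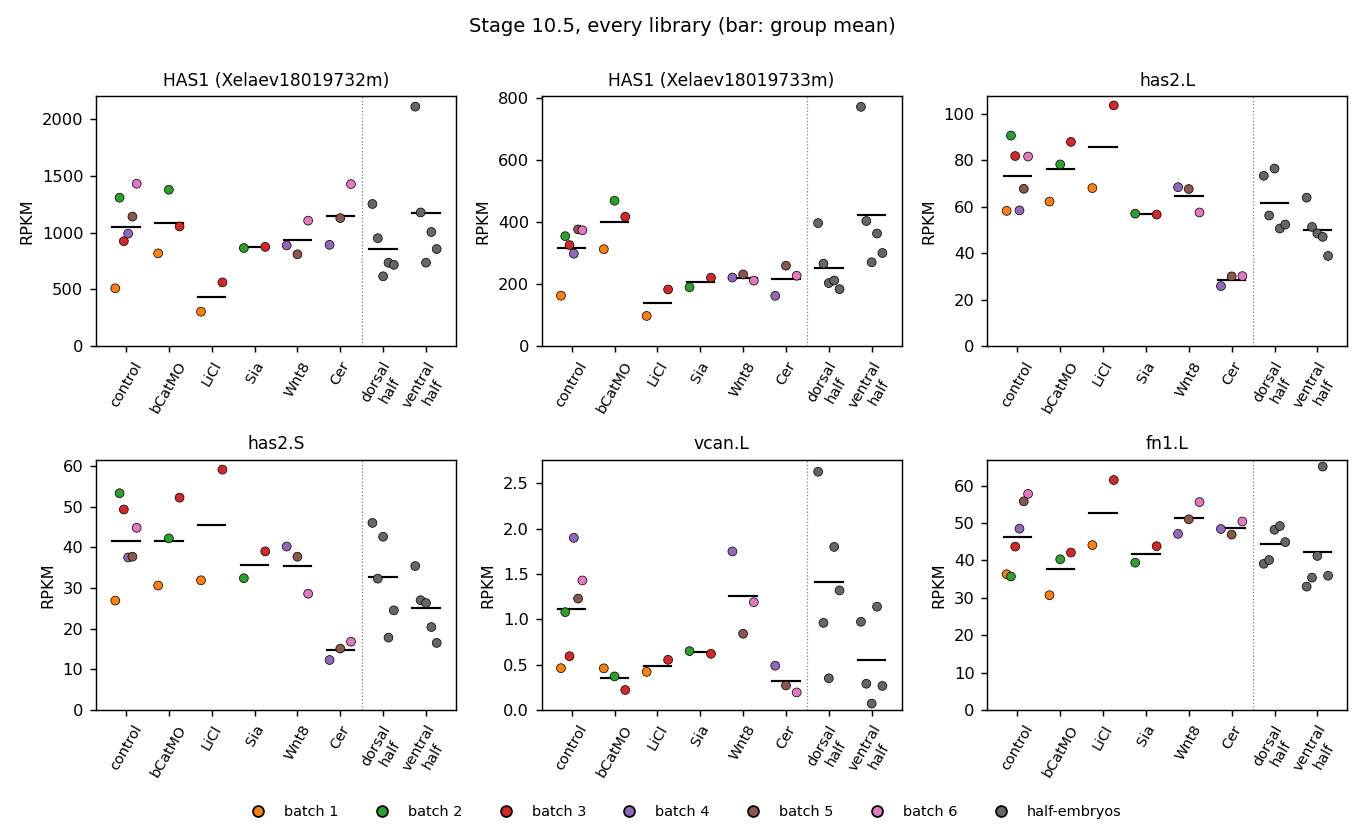
RPKM of the HAS1, has2, vcan.L and fn1.L rows in every library of stage 10.5 (points coloured by labelled batch, half-embryos in grey, bars at group means, each panel on its own axis from 0). The 3 Cer libraries lie at 25.9 to 30.2 RPKM for has2.L, under all 6 untreated libraries (58.3 to 90.7), while HAS1 row Xelaev18019732m in Cer lies among the untreated ones.

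At stage 9 no member was called in Cer, at a background of 0.399% of 18530 rows. Limma gave 4 members an unadjusted p below 0.05, and limma-voom on the recovered reads called 1, has2.S. That row was at 1.68, 0.904 and 3.37 RPKM in Cer against 7.69, 0.889 and 7.75, lower in 2 of the 3 batches. The has2.L values were 17.7, 15.3 and 18.8 RPKM against 30.8, 11.1 and 37.9. The vcan.L and mmp14.L rows were too low to be tested at this stage.

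In LiCl embryos the HAS1 rows and a TIMP1 row fell. At stage 10.5, 5 of 57 members were called, 4 lower and 1 higher, which is 8.77%, against 14.2% of all rows (10.4% lower and 3.80% higher). The share of members called was below that of all rows, and the difference between these shares was not tested. The median member change was 0.01, against -0.057 over all rows. Over all rows, 715 were called higher and 1953 lower, and with size factors in place of RPKM scaling 1462 were higher and 1329 lower. The member directions below were the same under both scalings.

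HAS1 row Xelaev18019732m was at 304.3 and 561.9 RPKM in the LiCl libraries and at 509.7 and 924.2 in the untreated libraries of their batches. Each LiCl library was below its control, though the batches differ enough that the groups overlap, and the change was -0.83 ± 0.14 (adjusted p 0.0038, limma). Row Xelaev18019733m was at 97.6 and 182.9 RPKM against 162.8 and 325.6, a change of -0.85 ± 0.15 (adjusted p 0.004). Both calls were lost without LiCl replicate 1, at adjusted p of 0.067 and 0.064. Here the HAS1 rows moved by like amounts, and their ratio was 0.321 to 0.326. HAS2 did not pass the test: has2.L was at 68.1 and 103.7 RPKM against 58.3 and 81.9, with an adjusted p of 0.23.

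TIMP1 row Xelaev18038146m, for a secreted inhibitor of metalloproteinases, was at 1.87 and 3.06 RPKM in LiCl and at 24.2 and 8.45 in the controls. Both LiCl libraries were below all 6 control libraries. The change of -2.38 ± 0.36 (adjusted p 0.0019) was the largest decrease called among the members, and it was -1.36 (adjusted p 0.0072) without LiCl replicate 1. ITGB1 row Xelaev18030727m was at 27.5 and 23 RPKM against 36.1 and 29.6, a change of -0.32 ± 0.08 (adjusted p 0.023). This call did not hold with size factors (change -0.25, adjusted p 0.061), without a filter on low values (0.051), or without LiCl replicate 1 (0.12), LiCl replicate 2 (0.18), control replicate 1 (0.14) or control replicate 3 (0.088).

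Fibronectin rose in 1 copy. The fn1.L row was at 44.1 and 61.5 RPKM in LiCl and at 36.3 and 43.7 in the controls, higher in both batches, a change of 0.44 ± 0.08 (adjusted p 0.0052). It was not called without LiCl replicate 2 (adjusted p 0.071). The fn1.S row was at 86.6 and 70.9 RPKM against 83.7 and 63.1, a change of 0.13 ± 0.07 with an adjusted p of 0.22; the difference between the copies was not tested.

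Region markers moved in LiCl too. The ventral list summed to 49.9 to 115.4 RPKM in LiCl against 137.3 to 430.2 in controls, with 4 of 8 tested rows called lower. The dorsal list had 10 of 15 tested rows higher, the mesoderm list summed to 962.1 to 1110.3 against 758.6 to 1173.9 with 5 of 14 rows higher and 1 lower, and the endoderm list had 2 of 10 higher. The epidermis list summed to 699.3 to 764.3 against 695.3 to 1045.8, with 1 of 15 tested rows higher and 5 lower. At 0 in both LiCl libraries were 7 of 15 ventral, 6 of 22 dorsal, 0 of 14 mesoderm, 3 of 13 endoderm and 4 of 20 epidermis rows. Their part in the matrix changes was not tested.

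At stage 9 the same HAS1 row Xelaev18019732m was the 1 member of 53 called in LiCl (1.89%, against 0.448% of all rows, 0.351% lower). It was at 100 and 35.6 RPKM against 242.3 and 91.8, both LiCl libraries below their controls, a change of -1.31 ± 0.24 (adjusted p 0.046). The call was lost without a filter (0.2) and without LiCl replicate 1 (0.07), LiCl replicate 2 (0.61), control replicate 2 (0.066), control replicate 3 (0.064), control replicate 4 (0.58) or control replicate 5 (0.16). Row Xelaev18019733m, at 24.4 and 5.97 RPKM against 69.7 and 20.5, changed by -1.60 ± 0.30 with an adjusted p of 0.051, and the TIMP1 row, at 1.22 and 3.3 against 4.73 and 5.6, by -1.14 ± 0.22 with an adjusted p of 0.056. All 5 tested rows of the hyaluronan family, has2.L and has2.S among them, changed by -1.60 to -0.01. The lithium effect on has2.L was higher at stage 10.5 than at stage 9 by 1.41 ± 0.35 (adjusted p 0.098, limma). For has2.S the difference was 1.28 ± 0.46 (adjusted p 0.36), and neither was called. The lithium effect on fn1.L differed between the stages by 0.55 (adjusted p 0.049): it was 0.44 at stage 10.5 and -0.11 ± 0.10 at stage 9, where the row was at 37.9 and 40.9 RPKM against 39.1 and 46.5. This was the 1 difference between stages called over the members and 5 treatments, against 0.731% of all 88730 row and treatment pairs. It did not pass with a pseudocount of 0.1 (adjusted p 0.054), without a filter (0.065) or without the batch term (1). With each of the 36 whole-embryo libraries left out in turn the call was lost for 28, at adjusted p up to 0.37; it held without Cer replicate 1, bCatMO replicate 1 or control replicate 1 of stage 10.5, and without Sia replicate 1, Wnt8 replicates 2 or 3 or control replicates 2 or 3 of stage 9.

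In bCatMO embryos few members moved. At stage 10.5, 2 of 57 were called, 1 higher and 1 lower, which is 3.51%, against 7.15% of all rows (1.98% higher and 5.17% lower), and the median member change was 0.01, against -0.013 over all rows. HAS1 row Xelaev18019733m was at 312.5, 468.3 and 416.7 RPKM in bCatMO and at 162.8, 354.3 and 325.6 in the controls of the same batches. It was higher in each batch, with overlapping ranges, and rose by 0.57 ± 0.13 (adjusted p 0.022). The call was lost without a filter (0.066) and without control replicate 1 (0.11), control replicate 3 (0.084), bCatMO replicate 1 (0.076) or bCatMO replicate 2 (0.076). Row Xelaev18019732m was at 817.1, 1376.8 and 1053.7 RPKM against 509.7, 1306.6 and 924.2, a change of 0.31 ± 0.12 with an adjusted p of 0.16. Limma-voom on the recovered reads called 3 members. It added vcan.L, which was lower by 1.06 ± 0.27 (adjusted p 0.027) and was not called in limma.

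The LAMA5 row Xetrov90024626m.L, for the alpha5 laminin chain of basement membranes, was at 0.923, 0.631 and 0.659 RPKM in bCatMO against 1.39, 0.743 and 1.05. It was lower in each batch with overlapping ranges, and its change was -0.32 ± 0.09 (adjusted p 0.045). In limma-voom the change was -0.51 (adjusted p 0.0073). In limma the call sits at the threshold: the adjusted p was 0.051 with size factors, 0.12 without a filter, 0.1, 0.062 and 0.17 without bCatMO replicates 1, 2 and 3, and 0.17, 0.2, 0.066, 0.053 and 0.051 without control replicates 1, 3, 4, 5 and 6. The fall was not particular to bCatMO in limma-voom. That test also called this LAMA5 row lower in Sia (-0.54, adjusted p 0.012) and in Cer (-0.33, adjusted p 0.03), where limma did not. Fibronectin, its receptor and nidogen 2 did not pass the test and lay near their controls, with changes of -0.04 ± 0.07 for fn1.L, -0.03 ± 0.06 for itga5.L and 0.04 ± 0.05 for nid2.L. Of the region markers in bCatMO at stage 10.5, 13 of 15 tested dorsal rows, 5 of 10 endoderm rows and 4 of 14 mesoderm rows were called lower, and 3 of 8 ventral and 4 of 15 epidermis rows higher. The endoderm list summed to 190.3 to 292.6 RPKM against 221.5 to 426.8 in controls, the mesoderm list to 628.9 to 876.7 against 758.6 to 1173.9, the ventral list to 323.9 to 461.2 against 137.3 to 430.2 and the epidermis list to 808.9 to 1131.3 against 695.3 to 1045.8. At 0 in all 3 bCatMO libraries were 5 of 22 dorsal, 3 of 13 endoderm, 0 of 14 mesoderm, 7 of 15 ventral and 3 of 20 epidermis rows. Their part in the HAS1 and LAMA5 changes was not tested. At stage 9 no member was called in bCatMO, against 0.696% of all rows; limma gave 1 an unadjusted p below 0.05 and limma-voom called none.

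In Sia embryos 1 row each of HAS1 and HAS2 fell, and a set of rows that were low in controls rose. At stage 10.5, 4 of 57 members were called, 2 higher and 2 lower, which is 7.02%, against 4.16% of all rows (2.34% higher and 1.83% lower). Both higher members passed the filter through the Sia libraries alone, so the share is given as a description. The median member change was -0.02, against -0.021 over all rows. HAS1 row Xelaev18019733m was at 189.9 and 220.8 RPKM in Sia against 354.3 and 325.6, without overlap, and fell by 0.65 ± 0.15 (adjusted p 0.029). It was not called with size factors (0.052), without a filter (0.058), or without Sia replicate 1 (0.26), Sia replicate 2 (0.083), control replicate 2 (0.16) or control replicate 3 (0.13). The has2.L row was at 57.1 and 56.7 RPKM against 90.7 and 81.9, a change of -0.58 ± 0.12 (adjusted p 0.018) that was lost without Sia replicate 1 (0.12), Sia replicate 2 (0.21) or control replicate 2 (0.11).

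With the filter only their Sia libraries admitted the higher rows, so itgb4-like.L is given from the fit without a filter. That fit took every row above 0 in any fitted library. The itgb4-like.L row, matched to the beta4 integrin chain of hemidesmosomes, was at 1.39 and 2.08 RPKM in Sia and at 0.0542 and 0.0699 in its controls, with at most 0.188 in any whole-embryo library outside Sia. Its change was 1.98 with an adjusted p of 3.1e-07 without a filter, and 3.47 with a pseudocount of 0.1. MMP3 row Xelaev18013824m, matched to stromelysin 1, was at 3.35 and 2.18 RPKM (178 and 147 reads) in Sia and had no read in any other whole-embryo library of stage 10.5. Against a floor of 3 reads a library, it was at least 56.3-fold higher in Sia. Even without the filter only its Sia libraries admitted this row, so no p is given.

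Without the filter, 15 of 236 members were called in Sia, 14 higher and 1 lower, against 3.24% of 38231 rows (2.45% higher and 0.782% lower). Of these, 12 had not been tested with the filter, and all 12 were higher in Sia. They were chosen here after their values were seen. MMP3 row Xelaev18013824m and MMP10 row Xelaev18013825m had no read in whole embryos outside Sia. Only Sia admitted those rows to this fit, so their calls carry no weight in the share. In 11 of the 12 rows both Sia libraries were above every other library of stage 10.5. In each of these rows the lower Sia library stood above by less than 1 RPKM. For col4a1.L (0.695 against 0.689 in LiCl replicate 1) and col17a1.S (0.772 against 0.747 in bCatMO replicate 2) the gap was close to nil. The exception was fbn3.L (matched to FBN2), at 0.726 and 0.631 in Sia and at 0.697 in Cer replicate 3. The COL1A1 row LOC496414.L, the main chain of type I collagen, was at 0.46 and 1.36 RPKM (93 and 349 reads), and no control library exceeded 0.00474. The FBLN2 row Xelaev18025821m was at 1.11 and 0.389 RPKM, with at most 0.08 in any library outside Sia. The basement membrane collagen row col4a1.L was at 0.695 and 1.18 RPKM against 0.0487 and 0.0902, and col17a1.S, the transmembrane collagen of hemidesmosomes, at 3.96 and 0.772 against 0.323 and 0.0472. Some of these rows were raised elsewhere too: col4a1.L was at 0.689 and 0.497 RPKM in LiCl, where it was called higher without a filter (0.85, adjusted p 0.017), and col17a1.S reached 0.747 in bCatMO replicate 2. The others were matched to COL11A1, COL24A1, COL6A3, FBLN5, FBN2, ITGA1, MMP10 and MMP13. Their levels in Sia ran from 0.0337 to 1.27 RPKM. Some of these calls rest on few reads in the Sia libraries: 2 and 4 for MMP13, 5 and 2 for MMP10, and 16 and 17 for ITGA1.

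In the Sia libraries the blood list was raised mainly through 1 row. The hbg1.L row, a globin, was at 48.3 to 53.1 RPKM in Sia at stage 10.5 and at 45.3 to 47.2 at stage 9, and did not exceed 0.04 in controls at stage 10.5. The blood list summed to 53.2 to 55.5 RPKM in Sia against 2.33 to 5.72 in controls at stage 10.5, with 6 of its 12 rows at 0 in both Sia libraries and 1 of 3 tested rows called. Most of that sum was the hbg1.L row, and a single row does not show a cell type. Of the region lists at stage 10.5, 6 of 8 tested ventral rows and 8 of 15 epidermis rows were called lower, and 8 dorsal and 2 epidermis rows of 15 each higher. The part of these markers in the matrix changes was not tested. At stage 9 no member was called in Sia, against 0.281% of all rows; limma gave 4 an unadjusted p below 0.05 and limma-voom called none. There MMP3 row Xelaev18013824m was at 0.479 and 0.0975 RPKM in Sia and at 0 in controls.

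In the libraries labelled Wnt8 no member of 57 was called at stage 10.5, against 0.462% of all rows. Limma gave 6 an unadjusted p below 0.05, and limma-voom on the recovered reads called 2. HAS1 row Xelaev18019733m was one, at 221.2, 231.2 and 211.2 RPKM against 297.9, 376.1 and 373.3 with no overlap; its change in limma was -0.65 ± 0.13 (adjusted p 0.057), and in limma-voom it was -0.65 ± 0.12 (adjusted p 0.011). TIMP1 row Xelaev18038146m was the other, at 7.38, 7.31 and 17.6 RPKM against 15.3, 12.8 and 40, lower in each batch, with an adjusted p of 0.46 in limma and 0.017 in limma-voom. The median member change was -0.03, against 0.003 over all rows. At stage 9 no member was called, against 0.108% of all rows, with 6 at an unadjusted p below 0.05 and none called by limma-voom.

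**Figure D3:**
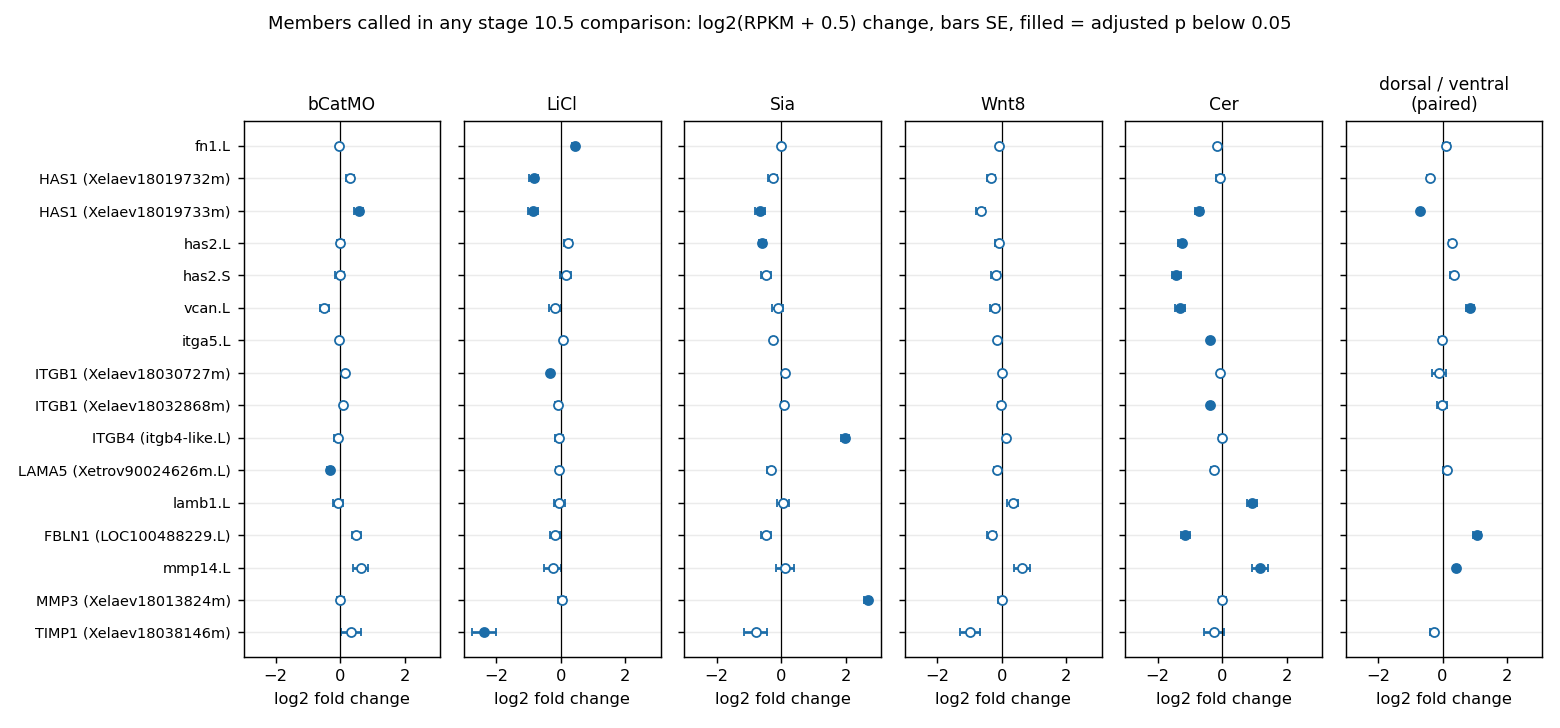
Change in log2(RPKM + 0.5) with its SE for each of the 16 members called in any comparison of stage 10.5, in the 5 treatments against untreated embryos and in dorsal against ventral half-embryos with the pair as a block (filled points, adjusted p below 0.05; a row without a point was not tested). HAS1 row Xelaev18019733m is filled in LiCl, Sia, Cer and the half-embryos below 0 and in bCatMO above 0, and has2.L, vcan.L and has2.S lie farthest below 0 in Cer (-1.25, -1.31 and -1.42); the MMP3 value depends on the pseudocount, and the filled MMP3, itgb4-like.L and lamb1.L points and the half-embryo vcan.L point are of rows that passed the filter only with the group where they are high.

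Dorsal and ventral half-embryos were compared in 5 same-numbered pairs. Taken as 5 against 5, no member of 52 was called, against 0.678% of 18448 rows, with 1 at an unadjusted p below 0.05 in limma and none called by limma-voom. The libraries of each number deviated together, so the pair was also fitted as a block. Then 4 of 52 members were called, 3 higher in dorsal and 1 lower, which is 7.69%, against 2.29% of all rows (1.70% higher and 0.585% lower). Of these, vcan.L passed the filter only with its dorsal libraries, and 3 passed it otherwise. The median member change was -0.01, against -0.022 over all rows.

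HAS1 row Xelaev18019733m was at 396.4, 265.8, 203.4, 211.6 and 183.7 RPKM in dorsal half-embryos 1 to 5 and at 770.5, 403.1, 270.4, 362.9 and 300.2 in the ventral half-embryos. Dorsal was lower in 5 of 5 pairs, with overlapping ranges, and the change was -0.69 ± 0.08 in the blocked fit (adjusted p 0.0059) and -0.69 ± 0.28 without the block (adjusted p 1). Row Xelaev18019732m changed by -0.40 with an adjusted p of 0.072 in the blocked fit. The ratio of the former row to the latter was 0.256 to 0.33 in dorsal half-embryos and 0.343 to 0.368 in ventral half-embryos, without overlap.

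A fibulin and a protease rose in dorsal half-embryos, and versican was higher there. The FBLN1 row LOC100488229.L was at 6.43, 1.88, 0.641, 1.44 and 1.76 RPKM in dorsal against 2.14, 1.14, 0, 0.355 and 0.607 in ventral half-embryos, a change of 1.07 ± 0.13 (adjusted p 0.0067, blocked). The vcan.L row was at 2.63, 0.962, 0.35, 1.8 and 1.32 RPKM against 0.974, 0.29, 0.071, 1.14 and 0.266, a change of 0.86 ± 0.13. It reached 1 RPKM in 3 dorsal libraries and 1 ventral library, so the dorsal libraries admitted it, and its call is not used as support. The mmp14.L row was at 8.54, 1.35, 1.75, 2.02 and 3.76 RPKM against 6.21, 0.95, 1.34, 1.19 and 2.57, a change of 0.42 ± 0.08 (adjusted p 0.049). All 3 were higher in dorsal in 5 of 5 pairs, and the ranges of dorsal and ventral half-embryos overlap for each. The HAS1 and FBLN1 calls held without any 1 pair of the 5. The mmp14.L call was lost without pair 1 (0.19), pair 2 (0.17), pair 3 (0.13) or pair 5 (0.17).

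Fibronectin and has2 did not pass the test between the 5 pairs of half-embryos. Some rows were called without pair 4, in fits added after the data were seen. For fn1.L and has2.S pair 4 alone ran the other way, so their calls without it are not used as support. The fn1.L row was at 39.1, 40.1, 48.2, 49.2 and 44.9 RPKM in dorsal against 33, 35.4, 41.2, 65.1 and 35.9 in ventral half-embryos, higher in dorsal in every pair but the fourth. Its change was 0.11 ± 0.11 (adjusted p 0.84) in the blocked fit and 0.24 ± 0.05 (adjusted p 0.041) without pair 4. The has2.S row, at 46, 32.3, 42.6, 17.8 and 24.5 RPKM against 35.4, 27, 26.3, 20.4 and 16.5, changed by 0.34 ± 0.12 (adjusted p 0.42) and by 0.47 ± 0.08 (adjusted p 0.023) without pair 4. TIMP1 row Xelaev18038146m (-0.40, adjusted p 0.035) and FBLN1 row Xetrov90026715m.L (0.76, adjusted p 0.032) were also called without pair 4 and not with all pairs (adjusted p 0.51 and 0.06). The fn1.S change was 0.04 ± 0.13 in the blocked fit. The has2.L row was at 73.4, 56.3, 76.5, 50.7 and 52.4 RPKM in dorsal against 64, 51.4, 48.6, 47.1 and 38.9 in ventral half-embryos, higher in each pair, with a change of 0.30 and an adjusted p of 0.25. The endoderm list summed to 351.0 to 540.7 RPKM in dorsal and 143.8 to 261.4 in ventral half-embryos, the dorsal list to 871.5 to 1608.7 against 117.1 to 156.6, and the ventral list to 109.5 to 135.0 against 318.9 to 996.2. Their part in the matrix differences was not tested.

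**Figure D4:**
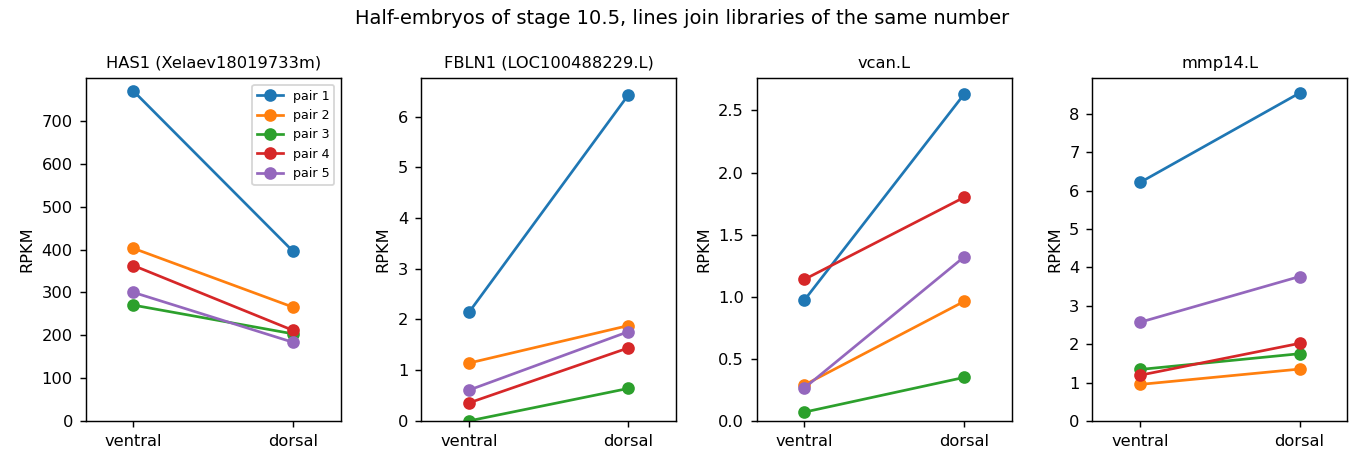
RPKM in the ventral and dorsal half-embryo of each of the 5 pairs (lines join libraries of the same number, each panel on its own axis from 0) for HAS1 row Xelaev18019733m, FBLN1 row LOC100488229.L, vcan.L and mmp14.L. Every line falls for HAS1 and rises for the other rows, and pair 1 lies highest among the dorsal half-embryos.

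Several members were high in all libraries of 1 labelled batch, controls and treated alike. By a rule set after seeing the values (every library of 1 labelled batch at 1 RPKM or more, and its lowest at least 10 times the highest of all other batches), 4 of the 57 tested members (7.02%) were high in a single batch at stage 10.5, against 85 of 18834 rows (0.451%). At stage 9 there were 4 of 53 (7.55%), against 108 of 18530 (0.583%). Each of these members passed the low-value filter in whole embryos through its high batch alone. The shares are therefore a description and do not test for an excess of members. The COL7A1 row Xetrov90008423m.L, matched to the anchoring-fibril collagen, was at 12.3 to 14 RPKM in the 4 libraries of batch 3 and at 0 to 0.0736 in the other 15 whole-embryo libraries. In the half-embryos it was at 14.2 and 13.2 RPKM in pair 3 and at most at 0.028 in the other pairs. At stage 9 it was at 12.3 to 13 RPKM in batch 5 and at most at 0.0808 elsewhere.

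The LAMB2 row Xelaev18025939m, a laminin beta chain, was at 4.44 to 4.68 RPKM in batch 6 of stage 10.5 and at most at 0.018 in the other whole-embryo libraries. At stage 9 it was at 4.26 to 5.01 in batch 3 and at most at 0.0134 elsewhere. The itga4.L row, for an integrin chain that binds fibronectin, was at 4.29 to 4.76 RPKM in batch 4 of stage 10.5 against at most 0.0956 elsewhere, and at 11.6 to 14 in batch 1 of stage 9 against at most 0.0145. The mmp1.S row, for an interstitial collagenase, was at 2.64 to 7.05 RPKM in batch 6 of stage 10.5 and at most at 0.0708 in the other whole-embryo libraries. In the half-embryos mmp1.S reached 0.373 RPKM. At stage 9 it did not meet the rule, with 68, 58 and 47 reads in batch 3 and at most 2 in any other library. The itgb8.L row was at 1.14 to 1.39 RPKM in batch 2 of stage 9 against 0.0123 to 0.0668. Batch numbers of the 2 stages are counted separately. In each of these batches the untreated library lay with the treated ones.

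**Figure D5:**
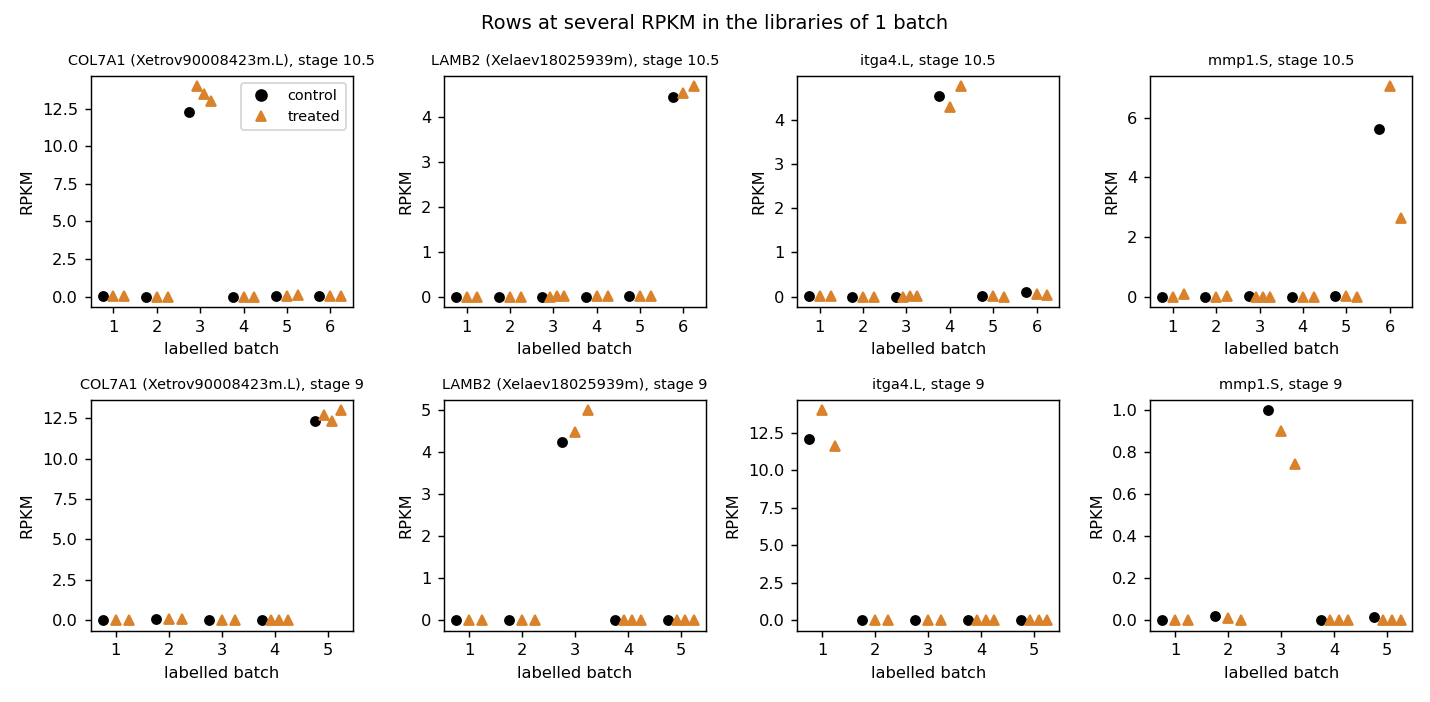
RPKM of the COL7A1, LAMB2, itga4.L and mmp1.S rows in every whole-embryo library by labelled batch, stage 10.5 above and stage 9 below (each panel on its own axis). In each panel for COL7A1, LAMB2 and itga4.L the libraries of 1 batch stand at 4.26 RPKM or more, untreated and treated alike, and all others lie near 0.

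Lists of other matrix and adhesion genes, outside the rule, held called rows in some comparisons. The share of all rows called in the same comparison stands in brackets. Of 26 other matrix proteins tested at stage 10.5, none was called in bCatMO (7.15%) or Wnt8 (0.462%). In LiCl 2 rose and 1 fell (14.2%), in Sia 3 rose and 1 fell (4.16%), and in Cer 1 fell (4.54%). Thrombospondin 1, an adhesive glycoprotein, was at 9.4 and 5.3 RPKM in Sia (thbs1.L) against 0.105 and 0.0797, a change of 3.75 ± 0.27. This row was also called higher in LiCl, at 2.37 and 0.308 RPKM against 0.255 and 0.0797, a change of 1.29 ± 0.27. The LiCl call was lost without control replicate 1. It was also lost without LiCl replicate 1, at a change of 0.60 with 1 LiCl library left. In Sia at stage 9 thbs1.L was at 2.66 and 0.989 against 0.2 and 0.028. There it was the 1 row called of 24 over the 5 treatments (0.281% in Sia). The THBS3 row Xetrov90026956m.S was at 1.53 and 2.11 RPKM in Sia against 0.0232 and 0.0136. At stage 10.5 both of these rows passed the filter only with their Sia libraries, so no p is given. The NTN1 row Xelaev18047672m, for the guidance protein netrin 1, was at 0.476, 0.19 and 0.668 RPKM in Cer against 2.29, 1.4 and 2.58, a change of -1.46 ± 0.19 (adjusted p 0.00035). It was also called lower in Sia, at 0.224 and 0.409 RPKM against 1.29 and 1.38, a change of -1.04 ± 0.22 (adjusted p 0.017, limma). The Sia call was lost without control replicate 2 (0.11) or control replicate 3 (0.081). It was also lost without Sia replicate 1 or 2, at changes of -1.02 and -1.05 with 1 Sia library left.

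Of 51 matrix receptors and integrin adhesion proteins tested at stage 10.5, 2 fell in bCatMO, against 7.15% of all rows called. In LiCl 2 rose and 2 fell (14.2%), in Cer 3 fell (4.54%), and none was called in Sia (4.16%) or Wnt8 (0.462%). At stage 9 none of 51 was called in any treatment, against 0.108% to 0.696% of all rows. The ILK row Xetrov90027597m.L, for the kinase-like protein that links beta1 integrin to actin, was at 1.98, 1.63 and 1.45 RPKM in bCatMO against 2.84, 2.38 and 3.13, a change of -0.59 ± 0.11 (adjusted p 0.0095) that was lost without control replicate 3 (0.071). The same ILK row was also called lower in LiCl, at 1.85 and 1.58 RPKM against 2.84 and 3.13. Its change there was -0.65 ± 0.13 (adjusted p 0.0078, limma). The LiCl call was lost without control replicate 3 or without either LiCl replicate. The CRK row Xelaev18011888m, for an adaptor protein, was at 37.9 and 33.2 RPKM in LiCl against 44.5 and 42.2, a change of -0.28 ± 0.05 (adjusted p 0.0024).

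Of 31 proteases outside the rule tested at stage 10.5, 2 rose and 3 fell in bCatMO, against 7.15% of all rows called. In LiCl 1 fell (14.2%), in Sia 1 rose and 1 fell (4.16%), in Cer 1 rose and 1 fell (4.54%), and none was called in Wnt8 (0.462%). Of 32 at stage 9, 2 fell in LiCl (0.448%) and none was called elsewhere (at most 0.696%). The ADAM19 row Xelaev18004895m, a membrane-anchored metalloproteinase, was at 3.95, 5.19 and 2.72 RPKM in Cer against 14, 17.6 and 13.2, without overlap, a change of -1.82 ± 0.19 (adjusted p 9.3e-05). In bCatMO it was at 6.55, 4.08 and 2.52 RPKM against 9.6, 12.2 and 6.54, a change of -1.07 ± 0.19 (adjusted p 0.0069). The TLL1 row Xelaev18021890m, for a tolloid-like protease that cuts procollagens and chordin, was at 4.38 and 5.8 RPKM in Sia against 0.946 and 1.43, a change of 1.99 ± 0.26 (adjusted p 0.00051). In the half-embryos, taken as 5 against 5, no row was called of 30 other matrix proteins, 50 receptors and adhesion proteins and 29 proteases. With the pair as a block 0 of 30, 1 of 50 and 2 of 29 were called, all higher in dorsal, against 1.70% of all rows. They were the SDC4 row Xelaev18043244m, for a syndecan that acts beside integrins (0.48 ± 0.09, adjusted p 0.046), the ADAM19 row Xelaev18004895m (1.01 ± 0.17, adjusted p 0.028) and adamts1.L, a secreted protease that cuts versican (0.72 ± 0.12, adjusted p 0.022). Each was higher in dorsal in 5 of 5 pairs, and with 1 pair left out in turn they stayed called in 1, 1 and 2 of 5 fits.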

How the data were processed

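RPKM values of 29 libraries of stage 10.5 and 17 of stage 9 were taken as the authors deposited them, in 2 tables headed by JGI9 gene IDs, per the file headers. Per the labels, TruSeq v2 libraries from total RNA were read at 100 bases. TopHat2 2.09 and DESeq appear in the submitters' processing notes without a stated role; the genome build, the annotation, the counting tool and any use of strand were not stated in the sources used here. The file headers call each control and its treated libraries an independent experiment, and p-values measure the spread between these libraries. A LiCl column headed with replicate number 3 was assigned to LiCl replicate 2 by its batch label, and 1 field of the replicate 1 labels of Wnt8 and Cer names another stage than the rest. The 3 columns of authors' averages were not used.

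The members and the other gene lists were chosen with earlier results of these data known. Members are named by their human match; some row names differ from it (fbn3.L is matched to FBN2, col5a3-like.L to COL11A1). Tests used limma 3.58.1 (lmFit, eBayes with trend) in R 4.3.3 on log2(RPKM + 0.5), on rows with at least 1 RPKM in 2 fitted libraries, with Benjamini-Hochberg adjustment over all 18834 (stage 10.5), 18530 (stage 9) or 18448 (half-embryos) rows, two-sided. Whole embryos of a stage shared 1 fit with group and labelled batch; half-embryos were fitted by group. Residual degrees of freedom were 8, 7 and 8. Differences between stages used Satterthwaite degrees of freedom. Same-numbered half-embryos deviated together (correlation of deviations from group means 0.901, 0.861, 0.894, 0.54 and 0.831; other pairings at most 0.05), so their numbers pair them. Treated libraries and the controls their labels name correlated at 0.806 or more.

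The low values stepped in whole reads (100% of rows within 0.005 of a read), which gave the reads behind each value; intervals and floors from reads cover counting error only. The planned count test was not run, because RPKM was deposited, and limma-voom on the recovered reads took its place. Named were the 12 highest members of each stage's controls, tested rows of a fixed panel (such as FN1, ITGA5, ITGB1, LAMC1, HAS2, VCAN and MMP14), every called member (12 or fewer a comparison) and at most 3 called genes of each other list; exceptions are stated. Alternatives were another pseudocount (0.1), no filter, median-of-ratios size factors, the batch or pair term, limma-voom and leaving out each library. Python 3.11.15, pandas 2.3.3 and matplotlib 3.10.9 made summaries and plots.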

Additional observations from a re-analysis of the deposited data

Results flagged for a closer look

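Single libraries stood far from the rest of their group in 14 of 103 groups examined (each named member in each group of 5 or 6 libraries), by the gap to the nearest library relative to the range of the group. Chance flags about 1 in 20 groups.

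Of these, 7 were libraries of half-embryo pair 1. In dorsal half-embryo 1 the FBLN1 row LOC100488229.L was at 6.43 RPKM (others 0.641 to 1.88), ITGB1 row Xelaev18032868m at 33 (16.2 to 18.9), HSPG2 row Xetrov90019615m.L at 1.35 (0.176 to 0.238), lamb1.S at 3.22 (0.833 to 1.17) and mmp14.S at 2.6 (0.312 to 0.444). In ventral half-embryo 1 HAS1 row Xelaev18019733m was at 770.5 RPKM (270.4 to 403.1) and mmp14.S at 2.49 (0.113 to 0.677). In ventral half-embryo 4 both fibronectin copies were high, fn1.L at 65.1 RPKM (33 to 41.2) and fn1.S at 129.0 (55.6 to 64.4).

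Among untreated embryos of stage 10.5, HAS1 row Xelaev18019733m was low in replicate 1, at 162.8 RPKM (297.9 to 376.1), lamb1.L was high in replicate 5, at 0.75 (0.00645 to 0.215), and lamb1.S was high in replicate 6, at 8.4 (0.421 to 2.15). At stage 9 replicate 3 was high for lamb1.S, at 8.3 RPKM (0.402 to 1.17), and for TIMP1 row Xelaev18038146m, at 26.6 (4.73 to 8.97).

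The lithium effect on fn1.L differed between stages by 0.55 on the log2 scale (adjusted p 0.049 in limma), at the threshold.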

How the results depend on the processing

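No called member reversed its direction under any alternative run. Of the 22 calls in whole embryos (the stage difference included), limma-voom kept all 22, a pseudocount of 0.1 ended 1, size factors ended 3 and no filter on low values ended 6; without the batch term 17 of 22 were lost. Counts of called members moved as follows. Without a filter they were 0 in bCatMO and 15 in Sia at stage 10.5, 0 in LiCl at stage 9 and 15 for the stage difference. With size factors they were 1 in bCatMO at stage 10.5 and 3 in LiCl at stage 9, and with a pseudocount of 0.1 they were 2 in LiCl at stage 9 and 0 for the stage difference. Limma-voom called 3 in bCatMO and 2 in Wnt8 at stage 10.5 and 1 in Cer at stage 9. Without the replicate block (batch term) the counts were 0 in bCatMO, 0 in LiCl, 2 in Sia and 3 in Cer at stage 10.5, 0 in LiCl at stage 9 and 0 for the stage difference. With the pair as a replicate block the half-embryos had 4 called, and 2, 2, 3, 8 and 2 without pairs 1 to 5 in turn (fits added after seeing the data, as were limma-voom and the stage difference without each library). The block changed no other count by more than 1.5 times.

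Leaving out 1 library gave 7 to 9 calls in Cer, 2 to 5 in LiCl, 0 to 4 in Sia, 0 to 1 in Wnt8 and 0 to 2 in bCatMO at stage 10.5, 0 to 1 in Cer and 0 to 2 in LiCl at stage 9, 0 to 1 for the stage difference, and 0 in the half-embryos and in bCatMO, Sia and Wnt8 at stage 9. A group left with 1 library was taken to vary like the others. The cause of these shifts was not tested. At stage 10.5, 190 of the 247 members were below the low-value filter in whole embryos and so had no test in the fits with that filter.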
